A study of Mus musculus with 21 samples.

Results

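Collagens and the proteins that assemble with them make up the extracellular matrix, and the transcripts of this gene set were followed in mouse prostate after castration, genistein and estradiol. The set was chosen by gene symbol: every collagen chain gene on the array, and Lum, Dcn, Bgn, Fmod, Ogn, Prelp, Sparc, Fn1, Eln, Fbn1, Fbln1, Fbln2, Postn, Lox, Loxl1 and Mgp where the array annotation names them. It comprised 56 genes on 128 of the 45259 probes. A probe was kept where its deposited detection p was under 0.05 on at least 3 arrays of an experiment, and a gene was read from its brightest kept probe. That left 49 of the 15406 genes tested in the genistein experiment and 45 of the 15088 tested with estradiol, with 45 genes kept in both. Of these, 34 of the 49 and 37 of the 45 were detected on every array of the experiment. Col6a4, Col6a6, Col9a3, Col10a1, Col13a1, Col19a1 and Postn were kept in neither experiment, and Col2a1, Col5a2, Col9a1 and Col25a1 were kept in the genistein experiment only.

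The samples were 21 arrays of prostate RNA from androgen reporter mice, in 6 groups and 2 experiments. All animals were FVB/N males of 8 to 12 weeks, heterozygous for a luciferase transgene driven by a thymidine kinase promoter with androgen response elements (Slp-HRE2), so every control carried the transgene too. In the genistein experiment, castrated males received genistein (3 arrays) or vehicle (3 arrays) from 4 days after surgery, and intact males received genistein (3 arrays) or vehicle (3 arrays). Genistein, a soy isoflavone that binds estrogen receptors, was given by daily subcutaneous injection over 5 days, with 300 µg to each mouse a day, in 0.1 ml mineral oil with 2% dimethylsulfoxide. In the estradiol experiment, intact males received either 17β-estradiol (4 arrays), 0.25 µg to each mouse a day over 4 days in mineral oil with 0.5% ethanol, or that vehicle (5 arrays). Tissue was taken 24 h after the last injection. The labels name neither the prostate lobes nor whether an array held RNA of 1 animal or a pool, so the spread between arrays of a group may be in part technical.

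Fibrillar collagens form the tensile cables of connective tissue, and small leucine-rich proteoglycans such as lumican and decorin bind these fibrils and regulate their diameter and spacing. Collagen IV forms the sheet-like network of basement membranes, which separates epithelium from stroma; its chains combine into different trimers, and the chains encoded by Col4a1 and Col4a2 are the widespread ones. Elastin, fibulins and lysyl oxidases build elastic fibres. In the prostate, epithelial ducts lie on a basement membrane inside a stroma of smooth muscle and fibroblasts, and withdrawal of androgen makes the secretory epithelium regress.

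The 6 collagen IV genes lie in 3 pairs of neighbours, Col4a1 with Col4a2 on chromosome 8, Col4a3 with Col4a4 on chromosome 1, and Col4a5 with Col4a6 on chromosome X, each pair transcribed in opposite directions from adjoining starts. The promoter windows of the chromosome 8 and X pairs are shown because they hold the gene that fell most after castration and the pair that did not pass the test. They are the RefSeq GRCm38.p6 sequences of 300 bases around each annotated start, read 5′ to 3′ on the gene's own strand. Capitals mark CCAAT and GGGCGG on either strand (on the opposite strand they read ATTGG and CCGCCC). The windows are Col4a1 at chr8:11312777-11313076 on the minus strand, Col4a2 at chr8:11312555-11312854 on the plus strand, Col4a5 at chrX:141475169-141475468 on the plus strand and Col4a6 at chrX:141474027-141474326 on the minus strand.
Col4a1: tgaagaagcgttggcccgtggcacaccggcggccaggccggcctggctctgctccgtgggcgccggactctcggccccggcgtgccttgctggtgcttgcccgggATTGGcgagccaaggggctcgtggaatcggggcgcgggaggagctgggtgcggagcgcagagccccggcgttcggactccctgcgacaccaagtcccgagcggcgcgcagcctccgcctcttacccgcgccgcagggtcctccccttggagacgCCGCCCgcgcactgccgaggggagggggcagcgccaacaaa
Col4a2: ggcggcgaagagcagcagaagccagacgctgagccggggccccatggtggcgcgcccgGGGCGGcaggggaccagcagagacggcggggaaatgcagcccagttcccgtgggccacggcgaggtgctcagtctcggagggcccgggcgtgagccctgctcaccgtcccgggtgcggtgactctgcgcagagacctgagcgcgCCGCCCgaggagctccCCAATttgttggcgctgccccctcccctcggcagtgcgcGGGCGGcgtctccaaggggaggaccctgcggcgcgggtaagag
Col4a5: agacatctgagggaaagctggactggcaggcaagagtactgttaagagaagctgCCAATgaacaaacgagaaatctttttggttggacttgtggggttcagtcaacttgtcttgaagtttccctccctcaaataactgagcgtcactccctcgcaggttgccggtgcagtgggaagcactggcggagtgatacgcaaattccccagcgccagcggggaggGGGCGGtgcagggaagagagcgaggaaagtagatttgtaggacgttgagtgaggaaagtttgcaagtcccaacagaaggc
Col4a6: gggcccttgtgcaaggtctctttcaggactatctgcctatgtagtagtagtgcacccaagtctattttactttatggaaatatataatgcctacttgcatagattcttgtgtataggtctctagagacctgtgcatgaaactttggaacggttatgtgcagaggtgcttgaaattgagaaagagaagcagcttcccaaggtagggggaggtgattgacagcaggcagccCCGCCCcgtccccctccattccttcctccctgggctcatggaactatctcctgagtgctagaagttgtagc
The Col4a1 and Col4a2 windows shared 78 bases, read on opposite strands, and those of Col4a5 and Col4a6 shared 0. The G and C content was 74.0% for Col4a1 and 73.7% for Col4a2, and 52.7% for Col4a5 and 48.3% for Col4a6. CCAAT occurred once in the Col4a1, Col4a2 and Col4a5 windows and in 0 places of the Col4a6 window, and it was present in 37.4% of all 32851 promoter windows. GGGCGG occurred in 3 places of the Col4a2 window and in 1 place of each of the others. The place in the Col4a1 window lies in the shared bases and is the last of the Col4a2 places, read on the other strand. Of the 56 genes, 41 had a window, and the first window of each was read. Of these, 24 (58.5%) held GGGCGG, against 35.7% of all windows. AGAACA, the hexamer of the androgen response element, was in 4 of them, against 18.97% of all windows. The windows of all genes were not cut to 1 per gene, so these shares are of unlike sets. All 3 motifs were searched on both strands, and none overlaps another in its letters.

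All castrated arrays were on chip 1 and all intact arrays of the genistein experiment were on chip 2, so a castration difference cannot be told apart from a chip difference, whereas each genistein comparison lay within 1 chip. The share of probes detected was 42.3% to 46.4% among the 12 arrays of the genistein experiment and 44.2% to 47.0% among the 9 of the estradiol experiment. The mean correlation of an array with the others of its group was 0.982 to 0.991 and 0.956 to 0.988, with vehicle array 1 of the estradiol experiment at the low end. Castrated genistein arrays 1 and 3 stood apart in seminal vesicle transcripts: the summed log2 signal of 5 such markers was 10.42 and 8.69, against 14.39 on array 2 of that group and 14.66 to 16.01 in castrated vehicle males. As a check of the castration labels, Pbsn, an androgen-dependent secretory gene, fell by 4.64 log2 units in vehicle-treated males (limma, Benjamini-Hochberg adjusted p = 3.53e-06) and fell by 4.31 in genistein-treated males (adjusted p = 6.22e-06). Levels below are normalized log2 signals, which rank samples for a probe and not one gene against another, and the experiments were normalized separately.

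Castrated and intact vehicle-treated males differed in 16 of the 49 genes, with 10 higher and 6 lower in castrated prostates. The genes that rose included 4 of 6 small leucine-rich proteoglycans, Fbln1 and Loxl1 of the elastic fibre, and Mgp. The genes that fell included 3 of 6 collagen IV genes, Col7a1, Col8a2 and Col9a2. Col4a3, among these collagen IV genes, was kept for testing only through the intact groups. Across all genes tested, 11.1% were called higher and 10.0% lower by the same limma test (21.2% in either direction). In 21 of the 49 genes the 3 castrated arrays did not overlap the 3 intact arrays, 13 higher and 8 lower, against 39.5% of all genes (21.6% higher and 17.9% lower). The median change of the 49 genes was 0.18 log2 units, against 0.04 over all genes, and it ranged over 0.06 to 0.24 when 1 array at a time was left out. With median scaling in place of quantile normalization, 9 genes of the set were called higher and 4 lower, and over all genes 2282 were higher and 1052 lower (68.4% of calls higher, against 52.6%). In whole tissue, fewer cells of a type and less RNA per cell cannot be told apart.

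**Figure D1:**
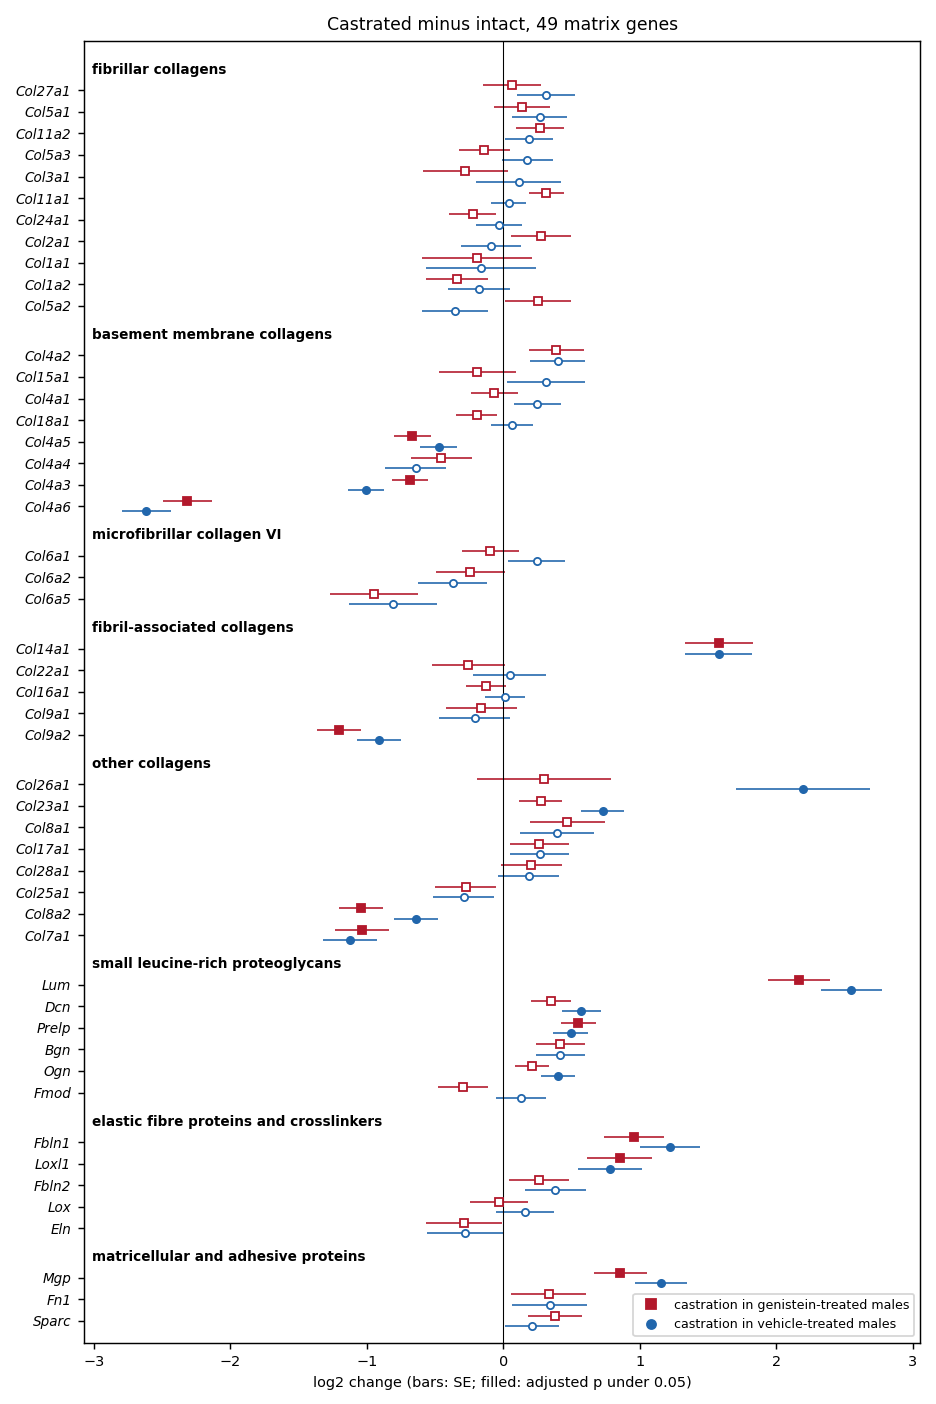
Change after castration (castrated minus intact, log2 units, bars giving the SE) of each of the 49 genes, grouped by role, in genistein-treated and in vehicle-treated males. Lum and Col4a6 lie farthest from 0 on opposite sides in both, and the fibrillar collagens lie around 0.

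Among the proteoglycans, lumican changed most. Lum, which encodes a keratan sulphate proteoglycan of collagen fibrils, read 12.62, 12.17 and 12.23 in castrated vehicle males and 9.50, 9.96 and 9.90 in intact vehicle males. The groups were more than 2 log2 units apart and did not overlap. The difference was 5.86-fold (2.55 ± 0.23 log2 units, SE, limma adjusted p = 2.37e-05), and a further Lum probe gave 2.34. Decorin, a dermatan sulphate proteoglycan that binds fibrils and growth factors of the TGF-beta family, averaged 14.47 ± 0.13 in castrated and 13.89 ± 0.19 in intact males (SD, n = 3 each), a 1.49-fold rise (adjusted p = 0.0159). The 4 Dcn probes ranged in change between 0.57 and 1.34, with the brightest probe at the low end. Prelp, a collagen-anchoring protein of the same family, averaged 12.70 ± 0.05 in castrated and 12.20 ± 0.23 in intact males, 1.41-fold higher (adjusted p = 0.0175). Ogn, or osteoglycin, was 1.32-fold higher (adjusted p = 0.0391). These smaller changes depended on single arrays, unlike that of Lum. Dcn no longer passed without castrated vehicle array 1 (adjusted p = 0.0672), intact vehicle array 2 (0.0536) or 3 (0.0579), and Prelp without castrated vehicle array 1 (0.0501) or 2 (0.0567) or intact vehicle array 3 (0.0751). Ogn failed in 7 of the fits that left out 1 array (adjusted p = 0.0532 to 0.110), and its 3 probes gave 0.40, 0.27 and -0.13. Bgn, biglycan, was at 0.42 (adjusted p = 0.121) and Fmod, fibromodulin, at 0.13 on its brightest probe and -0.47 on its other one.

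In the elastic fibre group, Fbln1, which encodes fibulin-1 of elastic fibres and basement membranes, read 12.98, 12.73 and 12.59 in castrated vehicle males and 11.42, 11.75 and 11.47 in intact vehicle males. Every castrated array lay above every intact one, and the difference was 2.33-fold (1.22 ± 0.22 log2 units, adjusted p = 0.0026). All 5 Fbln1 probes were higher, by 0.83 to 1.48. Loxl1, a lysyl oxidase that crosslinks elastin, read 10.64, 10.30 and 10.46 in castrated and 9.31, 10.06 and 9.67 in intact males. It was 1.72-fold higher (adjusted p = 0.0347), with a wide spread in the intact group, and it no longer passed without any 1 of castrated vehicle arrays 1 (adjusted p = 0.119), 2 (0.0521) or 3 (0.0802) or intact vehicle arrays 1 (0.119) or 3 (0.0846). Eln, elastin itself, was at -0.28 (adjusted p = 0.510), Fbln2 at 0.38 (adjusted p = 0.244) and Lox at 0.16 (adjusted p = 0.642).

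Mgp, which encodes matrix Gla protein, an inhibitor of calcification made by smooth muscle and cartilage cells, read 13.86, 13.77 and 13.70 in castrated and 12.32, 12.75 and 12.79 in intact vehicle males. It was 2.23-fold higher without overlap (1.16 ± 0.19, adjusted p = 0.00164). Fn1, fibronectin, was at 0.34 (adjusted p = 0.411). Sparc, a collagen-binding matricellular protein, was at 0.21 (adjusted p = 0.493), and its 3 probes gave 0.21, 0.38 and -0.18.

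Fibril-associated collagens, which attach to the surface of fibrils, went both ways. Col14a1, encoding collagen XIV of dense connective tissue, averaged 8.96 ± 0.20 in castrated and 7.38 ± 0.36 in intact vehicle males (SD, n = 3 each) without overlap, 2.99-fold higher (1.58 ± 0.25, adjusted p = 0.00115). Its other probe gave 1.31. Col9a2, encoding a chain of collagen IX best known from cartilage, read 5.17, 5.22 and 5.60 in castrated and 6.25, 6.30 and 6.18 in intact vehicle males, 1.88-fold lower (-0.91 ± 0.16, adjusted p = 0.00237). The other 3 genes of this group tested (Col9a1, Col16a1 and Col22a1) did not pass.

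**Figure D2:**
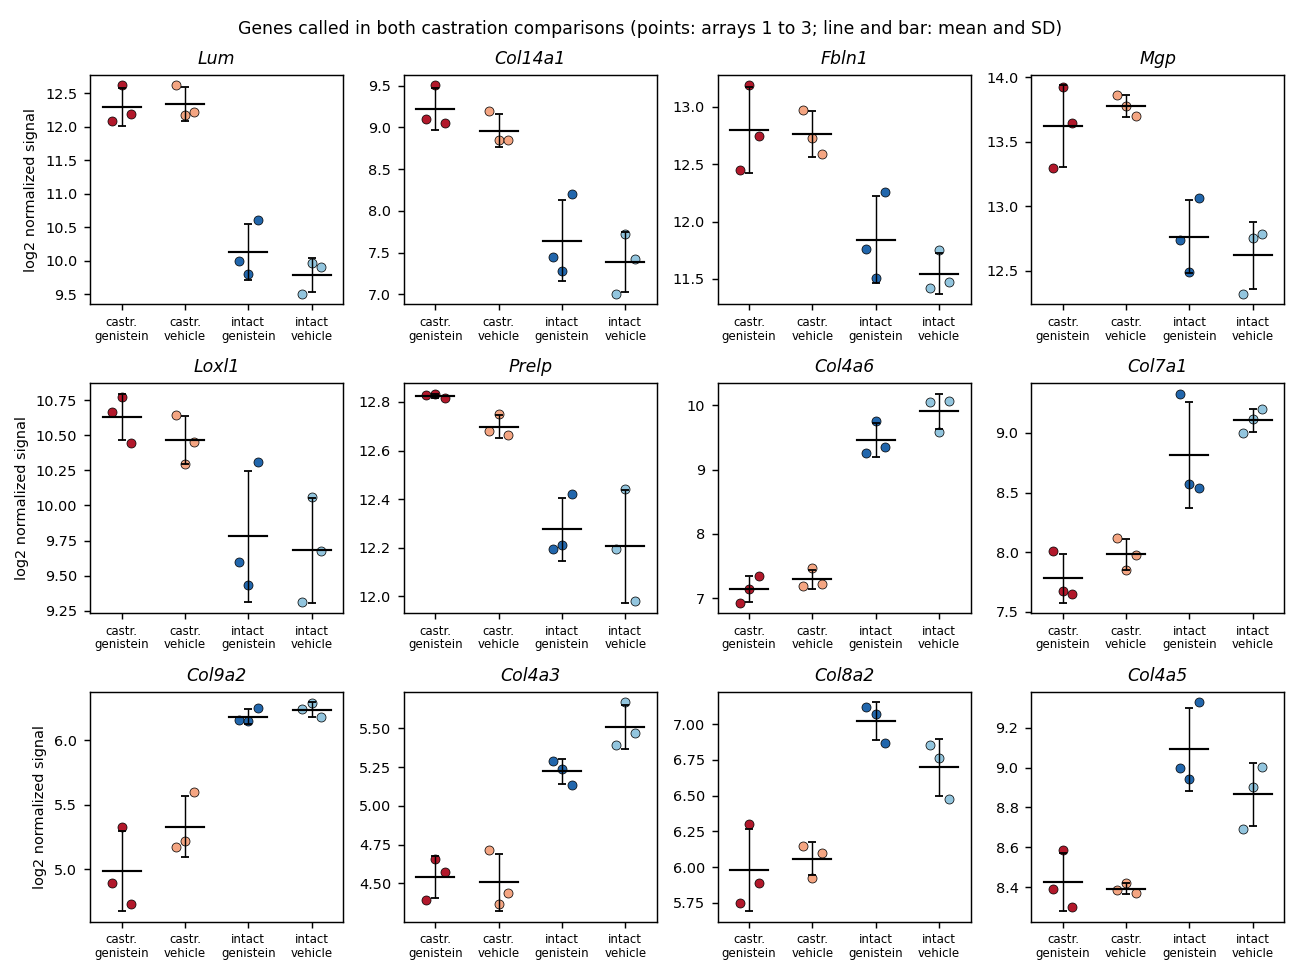
Normalized log2 signal on each array of the genistein experiment for the 12 genes called after castration in both genistein-treated and vehicle-treated males, with 1 point per array, a line at the group mean and a bar for the SD. Each panel has its own axis; Lum and Fbln1 lie higher on castrated arrays, and Col4a6 and Col7a1 lower.

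Of the 6 collagen IV genes, 3 fell and 3 did not pass. One of the 3, Col4a3, was detected on 0 of 6 castrated and 6 of 6 intact arrays, so it was kept for testing only through the intact groups and had to differ; of the other 5, 2 fell. Col4a6, whose product joins the collagen IV trimer of smooth muscle and some epithelial basement membranes, read 7.18, 7.46 and 7.22 in castrated and 10.06, 9.58 and 10.07 in intact vehicle males. It was 6.12-fold lower (-2.61 ± 0.18 log2 units, adjusted p = 4.06e-06), and its 3 probes ranged between -3.19 and -2.38. Its neighbour Col4a5, which encodes a chain of the same trimer, averaged 8.39 ± 0.03 in castrated and 8.87 ± 0.16 in intact males, 1.39-fold lower (adjusted p = 0.028). That smaller call was lost without castrated vehicle array 1, 2 or 3 (adjusted p = 0.0784, 0.0613 and 0.0758) and without intact vehicle array 2 or 3 (0.0675 and 0.103). Col4a3, encoding a chain of the specialised membranes of kidney and lung, was undetected on all 3 castrated vehicle arrays and read 5.39, 5.67 and 5.47 on the intact ones, which makes it at least 1.54-fold lower (adjusted p = 0.000372). Col4a4, its partner, was at -0.64 and missed the threshold (adjusted p = 0.0617).

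The widespread pair was among those that did not pass. Col4a1 averaged 0.25 higher (adjusted p = 0.332) and Col4a2 0.40 higher (adjusted p = 0.187) in castrated vehicle males. Col15a1 and Col18a1, basement membrane collagens that release antiangiogenic fragments, were at 0.31 (adjusted p = 0.466) and 0.06 (adjusted p = 0.803). In all, 3 of the 8 basement membrane collagens fell and 0 rose, against 10.0% of all genes lower and 11.1% higher. The 3 include Col4a3, which was kept for testing only through the intact groups. The promoter windows printed above held GGGCGG for the genes called lower (Col4a5 and Col4a6) and for those not called (Col4a1 and Col4a2) alike. Of the genes called after castration, 5 lower and 4 higher ones had a window, too few to read from: GGGCGG was in 5 and 1 of them, and AGAACA in 0 and 1.

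**Figure D3:**
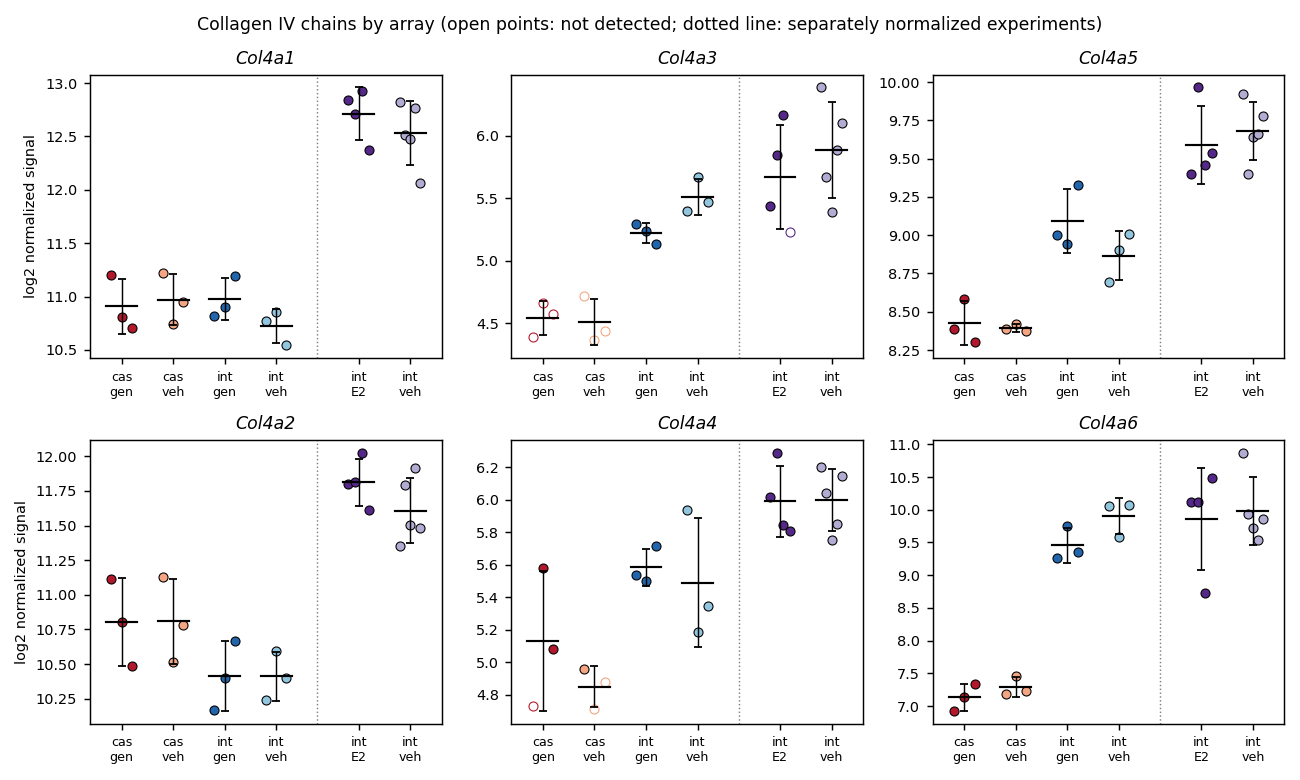
Normalized log2 signal of the 6 collagen IV genes on each array (cas, castrated; int, intact; gen, genistein; veh, vehicle; E2, estradiol), with the mean and SD of each group, open points where the probe was not detected and a dotted line between the separately normalized experiments. Col4a6 is lower on all 6 castrated arrays than on all 6 intact arrays, Col4a3 is undetected on all 6 castrated arrays, and the vehicle groups of the genistein experiment overlap for Col4a1 and Col4a2.

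Of the other collagens, Col7a1 and Col8a2 fell while Col26a1 and Col23a1 rose. Col7a1, the anchoring fibril collagen that ties epithelium to the tissue beneath, averaged 7.98 ± 0.13 in castrated and 9.10 ± 0.10 in intact vehicle males (SD, n = 3 each) without overlap, 2.18-fold lower (-1.12 ± 0.20, adjusted p = 0.00216). Col8a2, a short-chain collagen of Descemet's membrane and vessels, averaged 6.06 ± 0.12 in castrated and 6.70 ± 0.20 in intact males, 1.56-fold lower (adjusted p = 0.0147), and it lost the call without castrated vehicle array 2 (0.0558) or intact vehicle array 1 (0.0527). Col23a1, a membrane-spanning collagen, averaged 8.16 ± 0.24 in castrated and 7.43 ± 0.17 in intact males, 1.66-fold higher (adjusted p = 0.00708). Col26a1 read 6.93, 7.54 and 6.02 in castrated vehicle males and 4.45, 4.38 and 5.06 in intact ones, with 1 of the 3 intact arrays detected, a difference of 2.20 ± 0.49 log2 units between signals that lay at background on the other intact arrays (adjusted p = 0.0085). The spread of Col26a1 was the widest among the genes called, and its other probe gave -0.31, so the call rests on 1 probe; with the mean of both the change was 0.94.

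None of the fibrillar collagens was called by the brightest probe of each gene. Where all probes of a gene were averaged, Col27a1 was called (0.48, adjusted p = 0.011). Col1a1 and Col3a1, chains of the main fibril-forming collagens, were at -0.16 ± 0.40 and 0.11 ± 0.31 log2 units (SE, adjusted p = 0.809 and 0.827). Of the 11 genes tested, 0 had an unadjusted p under 0.05 (limma), but 6 were detected on 8 or fewer of the 12 arrays and so lay near background. The standard errors of Col1a1 and Col3a1 were large for this set, whose median SE was 0.212. Collagen VI genes (3 tested) gave 0 calls, and Col6a5 was at -0.81 (adjusted p = 0.0955). Values of genes that did not pass were named here after they were seen.

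Castration in genistein-treated males gave 12 calls, 6 of 49 genes higher and 6 lower, against 11.2% and 10.9% of all genes (22.1% in either direction). All 6 that rose (Lum, Col14a1, Fbln1, Mgp, Loxl1 and Prelp) and all 6 that fell (Col4a6, Col9a2, Col8a2, Col7a1, Col4a3 and Col4a5) were also called in vehicle-treated males, in the same direction. Of these, Col4a3 entered both tests only through the intact groups. The comparisons use different arrays on the same chips. Groups did not overlap for 7 genes higher and 7 lower, against 20.9% and 17.5% of all genes (38.4% in either direction). The median of the 49 genes was -0.03, against 0.04 over all genes. Probes of 1 gene differed in sign for Ogn (0.21, -0.51 and 0.36), Col3a1 (-0.28 and 0.50), Fbln2 (0.26, -0.31 and 0.43) and Col26a1 (0.30 and -0.22).

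In these males Lum read 12.08, 12.62 and 12.19 with castration and 10.00, 9.80 and 10.60 without, 4.48-fold higher (adjusted p = 7.95e-05). Col14a1 read 9.10, 9.51 and 9.06 in castrated and 7.44, 7.28 and 8.20 in intact genistein males, 2.99-fold higher (adjusted p = 0.00116). Both genes were higher on every castrated array. Fbln1 was 1.94-fold higher (adjusted p = 0.00944), Mgp 1.81-fold (0.00849), Loxl1 1.80-fold (0.0232) and Prelp 1.46-fold (0.00996). Loxl1 was the call of this comparison that single arrays decided, with adjusted p = 0.067, 0.0721, 0.0735 and 0.0934 without castrated genistein array 1 or 2 or intact genistein array 1 or 2. On the other side, Col4a6 read 6.93, 7.15 and 7.34 in castrated and 9.26, 9.75 and 9.35 in intact genistein males, 4.98-fold lower (adjusted p = 9.33e-06). Col9a2 was detected on 1 of 3 castrated arrays and 2.30-fold lower (adjusted p = 0.000458), Col8a2 2.06-fold lower (0.000995), Col7a1 2.05-fold lower (0.00351) and Col4a5 1.59-fold lower (0.00506). Col4a3 was again undetected on all 3 castrated arrays and at least 1.27-fold lower (adjusted p = 0.00389). Col4a1 and Col4a2 were at -0.07 and 0.39 (adjusted p = 0.818 and 0.193), and 0 of the 11 fibrillar collagens were called.

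Dcn, Ogn, Col23a1 and Col26a1 passed in vehicle-treated males and not here, with changes of 0.35, 0.21, 0.27 and 0.30 and adjusted p = 0.110, 0.256, 0.237 and 0.709. The difference between the castration changes was tested as an interaction and was passed by 0 of 49 genes and 0% of all genes (limma). At an unadjusted p under 0.05, 1 of 49 genes had a difference below 0, against 7.28% of all genes (3.23% above and 4.06% below 0). That gene was Col26a1, whose castration change was smaller with genistein (a difference of -1.90 ± 0.69 log2 units, adjusted p = 0.623). Without castrated genistein arrays 1 and 3, which stood apart in seminal vesicle transcripts, that difference was -0.74, with 1 array left in the group. After Col26a1, the lowest p were those of Col23a1 at -0.45 (adjusted p = 0.698), Col8a2 at -0.40 (0.739), Col5a2 at 0.61 (0.739) and Col4a3 at 0.32 (0.741). With castrated genistein arrays 1 and 3 left out together, 4 genes were called higher and 3 lower after castration in genistein-treated males, and 0 in the interaction. Without castrated genistein array 2 the interaction had 10 genes above and 69 below 0 over all genes and 0 of the 49, whose lowest adjusted p was 0.116. That fit kept only arrays 1 and 3 of the castrated genistein group.

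Other genes of matrix assembly, from lists of enzymes, basement membrane proteins, glycoproteins and receptors, gave mixed calls after castration. Over all genes, 11.1% were higher and 10.0% lower in vehicle-treated males, and 11.2% and 10.9% in genistein-treated males. Of 17 collagen processing enzymes and chaperones, 2 were higher and 4 lower in vehicle-treated males, and the same counts were found in genistein-treated males. Pcolce2 and Bmp1, which act on removal of the procollagen C-propeptide, rose by 1.26 and 0.98 log2 units in vehicle-treated males (adjusted p = 0.00133 and 0.00115). P4ha2 and P4hb, subunits of prolyl 4-hydroxylase, were at -1.02 and -0.82 (adjusted p = 0.00267 and 0.00139). Of 13 laminins and other basement membrane proteins, 2 were higher and 1 lower in vehicle-treated males, and 3 and 1 in genistein-treated males. Lama1, a laminin alpha chain, was at -1.04 (adjusted p = 0.00321) and Nid2, a nidogen that links laminin to collagen IV, at 0.66 (adjusted p = 0.0121). Of 18 other matrix glycoproteins, 4 were higher and 0 lower in both, with Thbs2 at 1.32 (adjusted p = 0.0153) and Mfap2 at 1.19 (adjusted p = 0.00186) in vehicle-treated males. Of these 18, 1 was undetected on every array of intact vehicle males and 1 on every array of intact genistein males. Of the 13 basement membrane proteins, 2 and 1 were undetected in these groups. Such genes were kept for testing only through other groups, which limits the counts called higher in both lists. Of 15 collagen and matrix receptors, 1 was higher and 2 lower in vehicle-treated males, and 2 and 2 in genistein-treated males. Itga11, a collagen-binding integrin subunit of fibroblasts, was at 1.16 (adjusted p = 0.0015), and Ddr1, a collagen receptor of epithelium, at -0.38 (adjusted p = 0.0426).

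Markers of cell types moved with castration as well. The shares of all genes called were 11.1% higher and 10.0% lower in vehicle-treated males, and 11.2% and 10.9% in genistein-treated males. Of 13 fibroblast markers, 8 were higher and 1 lower in vehicle-treated males, and their summed log2 signal was 13.67 to 14.00 in castrated and 13.09 to 13.31 in intact vehicle males. All 9 macrophage markers were higher (summed 13.17 to 13.35 in castrated and 11.94 to 12.23 in intact vehicle males), and 3 of 10 endothelial markers were higher and 0 lower. Of 12 smooth muscle markers, 0 were higher and 3 lower (summed 16.16 to 16.39 in castrated and 16.47 to 16.68 in intact vehicle males). All 6 prostate secretory markers were lower (summed 13.53 to 14.34 in castrated and 16.84 to 16.96 in intact vehicle males). In genistein-treated males the counts higher and lower were 5 and 0 for fibroblast, 7 and 0 for macrophage, 3 and 0 for endothelial, 0 and 8 for smooth muscle, 0 and 6 for secretory, 5 and 0 for 7 adipocyte, and 0 and 3 for 5 seminal vesicle markers. The remaining lists gave in vehicle-treated males 1 and 2 of 7 luminal, 0 and 1 of 7 basal, 2 and 1 of 5 urothelial, 0 and 1 of 10 skeletal muscle, and 0 and 0 of the 7 adipocyte, 5 seminal vesicle and 3 Schwann cell markers. In castrated genistein males 2 of the 5 seminal vesicle markers and 1 of 3 Schwann cell markers were undetected on every array. So was 1 of 7 luminal markers in castrated vehicle males. Of the 7 adipocyte markers, 1 was undetected on every array of intact vehicle males and 1 on every array of intact genistein males. A marker undetected in a whole group was kept for testing only through the other groups, which limits the counts of its list. The part of these marker differences in the matrix changes was not tested. Under genistein and estradiol, 0 genes of any of these lists of matrix partners and markers were called.

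Genistein in castrated males left no gene of the set past the threshold: 0 of 49 were called (limma), against 0% of all genes. At an unadjusted p under 0.05 there was 1 of 49, which was lower, against 9.47% of all genes (4.42% higher and 5.05% lower). Genistein arrays did not overlap vehicle arrays for 3 genes higher and 0 lower, against 8.06% and 9.44% of all genes, and the median change was 0.03 (-0.07 to 0.12 with 1 array left out). The 0% over all genes rested on castrated genistein array 2: without it 28 genes were higher and 116 lower, with 0 of the 49 among them. That fit kept only arrays 1 and 3 of the group, which stood apart in seminal vesicle transcripts. What part this had in those calls was not tested. The lowest adjusted p of the 49 was then 0.0550 (Col26a1, -2.01). Col26a1 had the lowest p (-1.43 ± 0.49 log2 units, adjusted p = 0.380). It read 4.53, 6.56 and 5.11 in castrated genistein and 6.93, 7.54 and 6.02 in castrated vehicle males, so the groups overlapped, and its other probe gave 0.10. Without castrated genistein arrays 1 and 3 the change of Col26a1 was -0.27, with 1 array left in that group. Col8a1, a short-chain collagen of vessel walls, read 6.57, 7.05 and 6.69 in castrated genistein and 6.40, 5.71 and 6.43 in castrated vehicle males (0.59, adjusted p = 0.531), without overlap. Col5a2, a fibrillar chain, was detected on the 3 genistein arrays and on none of the 3 vehicle arrays. Its mean was at least 1.25-fold higher, which bounds the estimate only, and the difference did not pass (adjusted p = 0.550). Col11a1 and Col9a2 were at 0.28 and -0.35 (adjusted p = 0.535 and 0.539). Probes of 1 gene differed in sign for Sparc (0.78, -0.06 and 0.15), Fmod (-0.33 and 0.40) and Fbln2 (0.02, -0.39 and 0.26).

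Genistein in intact males called 0 of 49 genes (limma), against 0.00649% of all genes higher and 0% lower. At an unadjusted p under 0.05 there were 3 genes, 1 higher and 2 lower, against 7.41% of all genes (4.09% higher and 3.32% lower). Groups did not overlap for 2 genes higher and 1 lower, against 5.45% and 5.22% of all genes. The median change was 0.11 over the 49 genes (0.06 to 0.25 with 1 array left out) and 0.00326 over all genes, and 77.6% of the 49 had a change above 0, against 50.6% of all genes. With median scaling the median of all genes was 0.113. Intact genistein array 3 was the highest of its group for 34 of the 49 genes. Col23a1 had the lowest p. It read 7.93, 7.98 and 8.05 in intact genistein and 7.24, 7.52 and 7.53 in intact vehicle males, without overlap (0.56 ± 0.16, adjusted p = 0.572). Col4a6 read 9.26, 9.75 and 9.35 in intact genistein and 10.06, 9.58 and 10.07 in intact vehicle males (-0.45, adjusted p = 0.639), and the groups overlapped. Col4a3 read 5.29, 5.24 and 5.13 in intact genistein and 5.39, 5.67 and 5.47 in intact vehicle males (-0.29, adjusted p = 0.667). Ogn and Col8a2 were at 0.26 and 0.32 (adjusted p = 0.678 and 0.682). Probes differed in sign for Col3a1 (0.45 and -0.36) and Sparc (0.36, -0.18 and -0.02). The 95% interval lay within 1 log2 unit of 0 on both sides for 45 of 49 genes in castrated and 44 of 49 in intact males. For those genes changes beyond 2-fold were outside the intervals, and smaller changes lay inside or outside them depending on the gene.

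**Figure D4:**
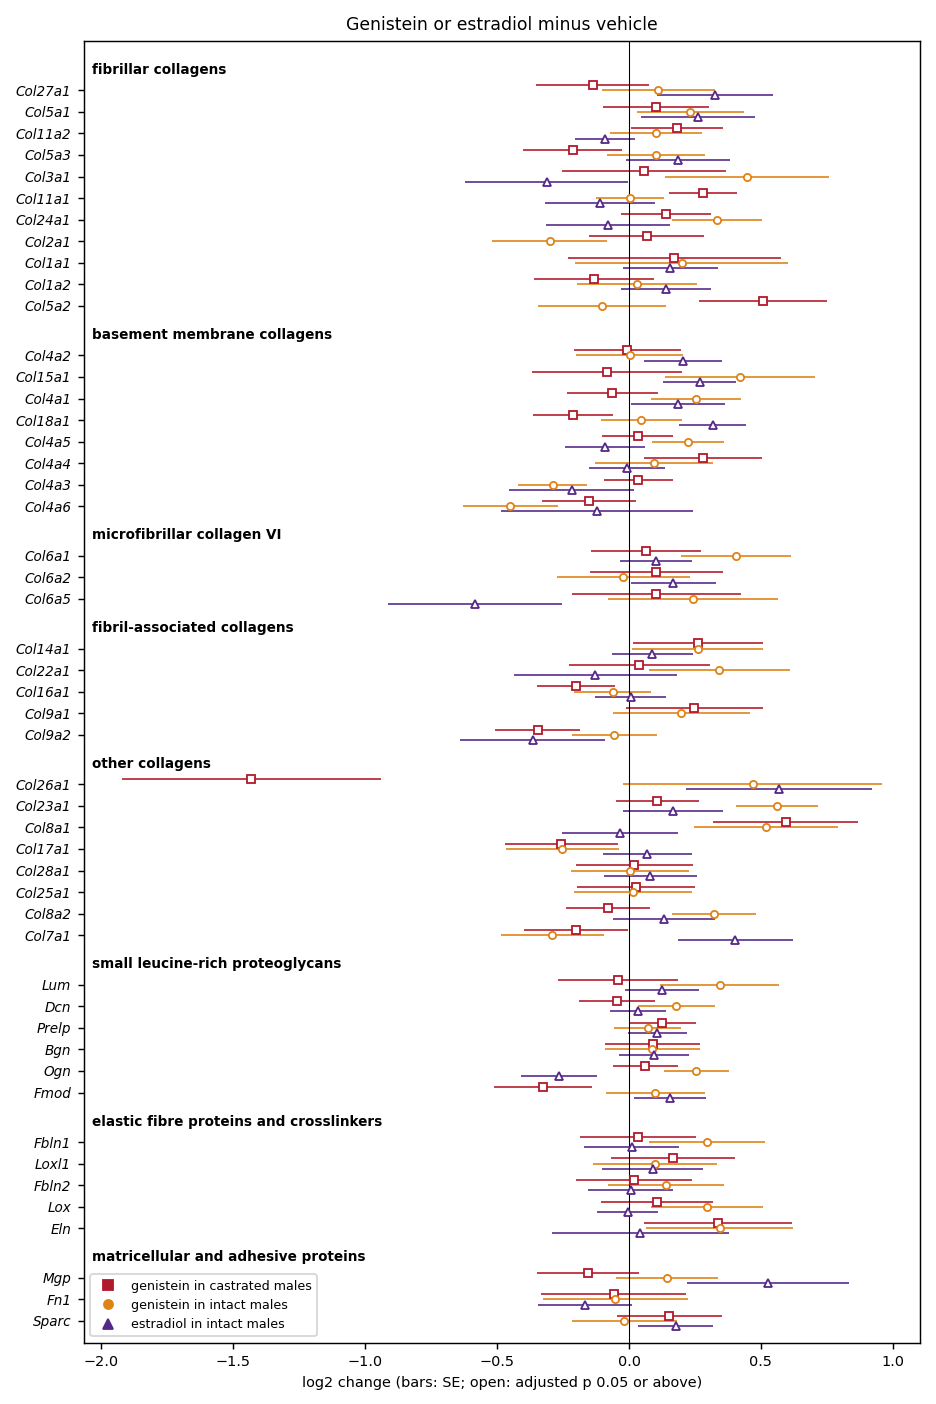
Change after genistein in castrated males, genistein in intact males and estradiol in intact males (compound minus vehicle, log2 units, bars giving the SE) for the genes of each role, 49 with genistein and 45 with estradiol. All points are open because 0 genes passed the adjusted threshold in the 3 comparisons, and Col26a1 under genistein in castrated males lies farthest from 0 at -1.43.

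The genes that moved with castration were read under genistein too. For the 6 that rose in both groups of males, the genistein change was -0.16 to 0.26 in castrated males (lowest adjusted p = 0.796) and 0.07 to 0.34 in intact males (lowest adjusted p = 0.760). For the 6 that fell, it was -0.35 to 0.03 in castrated and -0.45 to 0.32 in intact males. Lum was at -0.04 in castrated males (95% interval -0.54 to 0.45) and at 0.34 in intact males (-0.15 to 0.84). These comparisons share their vehicle groups with the castration comparisons.

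Estradiol in intact males called 0 of 45 genes (limma), against 0% of all genes. At an unadjusted p under 0.05 there was 1 of 45, which was higher, against 6.92% of all genes (3.67% higher and 3.25% lower). Groups were without overlap for 0 genes, against 2.82% of all genes (1.64% higher and 1.19% lower). Chip and group overlapped only in part: all 4 estradiol arrays and vehicle arrays 1 and 2 were on chip 3, and vehicle arrays 3 to 5 were on chips 4 and 5. Col18a1, source of endostatin, had the lowest p. It read 11.50, 11.62, 11.55 and 11.35 after estradiol and 11.13, 11.12, 11.17, 11.51 and 11.02 after vehicle (0.32 ± 0.13, adjusted p = 0.687). Vehicle array 4 reached into the estradiol range. Its relative Col15a1 was at 0.27 (adjusted p = 0.754).

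Col7a1 read 9.89, 9.97, 10.03 and 9.66 after estradiol and 9.79, 9.99, 9.24, 8.84 and 9.56 after vehicle (0.40, adjusted p = 0.770). The vehicle arrays with low values were on other chips, and within chip 3 the difference was -0.0037. Ogn and Col6a5 were at -0.27 and -0.58 (adjusted p = 0.770 and 0.783). Probes differed in sign for Col26a1 (0.57 and -0.14) and Sparc (-0.26, 0.26 and 0.18). Lum read 10.50, 10.49, 10.65 and 10.64 after estradiol and 10.59, 10.10, 10.36, 10.73 and 10.44 after vehicle, which overlap (0.12, 95% interval -0.18 to 0.43). Col4a6 was at -0.12 (95% interval -0.93 to 0.69). For 42 of 45 genes the interval lay within 1 log2 unit of 0. Without vehicle array 1, which stood apart, 0 genes were called and 5 had an unadjusted p under 0.05.

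Within a group, 1 array often held the highest value for many of the matrix genes. In castrated genistein males, array 2 was the highest of its group for 31 of 49 genes, with a median deviation of 0.17 log2 units from the group mean, and for 35.0% of all genes. In castrated vehicle males array 1 was highest for 35 of 49 (0.16) and for 34.2% of all genes. In intact genistein males array 3 was highest for 34 (0.22) and for 33.7% of all genes, and in intact vehicle males array 2 for 25 (0.11) and for 31.5% of all genes. These 4 arrays were also the highest of their groups in the summed log2 signal of the fibroblast, endothelial and macrophage markers. That sum was 13.92, 13.44 and 13.38 on castrated genistein array 2 and 14.00, 13.50 and 13.35 on castrated vehicle array 1, for fibroblast, endothelial and macrophage markers in that order. It was 13.49, 13.02 and 12.66 on intact genistein array 3 and 13.31, 12.92 and 12.23 on intact vehicle array 2. The part of these marker levels in the matrix values was not tested. In the estradiol experiment estradiol array 3 was highest for 19 of 45 (28.5% of all genes), and vehicle array 4 for 21 (0.24; 21.4% of all genes). For comparison, the median changes over the set were 0.03 and 0.11 for genistein in castrated and intact males and 0.09 for estradiol.

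**Figure D5:**
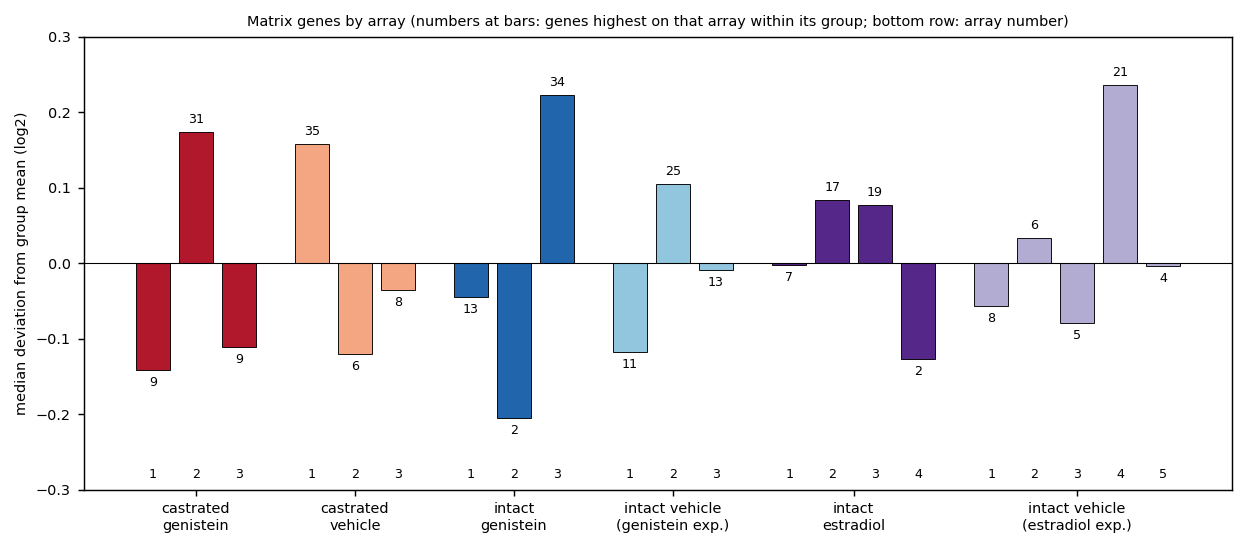
Median deviation of each array from its group mean (log2 units, bars) over the matrix genes, with the number of genes highest on that array at each bar and the array number in the bottom row. The highest array in intact genistein males lies 0.22 above its group mean at the median and that of the vehicle group of the estradiol experiment 0.24.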

How the data were processed

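Prostate RNA was labelled as biotin cRNA and hybridised to Illumina bead arrays, and the submitters' processing notes name BeadStudio. The authors deposited probe intensities that were neither background-corrected nor normalized, per the file headers, with a detection p-value per probe and array; the sources used here do not give how that p-value was computed. The authors' processed intensity values, also deposited, served as an alternative.

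Intensities were background-corrected (normexp, from the detection p-values), offset by 16, quantile-normalized within each experiment and put on the log2 scale with neqc of limma 3.58.1 in R 4.3.3. Genes were tested with lmFit and eBayes, two-sided, at a threshold of 0.05 after Benjamini-Hochberg adjustment over every gene tested, with group means only, on 12 arrays (8 residual degrees of freedom) and 9 arrays (7). The number of arrays limits the precision. P-values set a group difference against the spread between arrays of the same group. In the castration comparisons that spread lies within chips and covers no chip difference. For a gene undetected on every array of a group the change is a bound, given as "at least N-fold" against the lowest signal detected. Checks were run on simulated data.

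Members and gene lists were chosen with earlier results of these data known. Genes that passed were named, with values per array for at most the 10 with the largest change; where 0 passed, the 5 with the lowest p were named; of each other list at most 4 passing genes were eligible. Symbols came from the platform annotation, which gives 1 symbol for 34872 of the 45259 probes; promoter sequences came from RefSeq. Alternatives covered scaling, offset, filter, probe choice, the authors' values, the variance model, a replicate block, chip, and leaving out arrays.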

Additional observations from a re-analysis of the deposited data

Results flagged for a closer look

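In 3 of 90 tests of 1 gene in a group of 4 or 5 arrays, 1 array lay far from the rest by Dixon's criterion, where chance gives about 1 in 20, or 4.5. Col11a1 read 5.58 on estradiol array 2, the only array of its group on which it was detected, and the next highest was 4.88. Mgp read 11.96 on vehicle array 1 of the estradiol experiment, and the next lowest was 13.31; this is the array with the lowest correlation with its group (0.956). Sparc read 13.41 on vehicle array 4 of that experiment, and the next highest was 12.98; this array was the highest of its group for 21 of the 45 matrix genes. All 3 genes had 0 calls under estradiol.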

How the results depend on the processing

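Of the 16 calls in vehicle-treated males, 10 were kept in every alternative that gave them a value: Lum, Col14a1, Fbln1, Mgp, Col23a1, Col26a1, Col4a6, Col4a3, Col7a1 and Col9a2. Among them, Col4a3 had entered the test only through the intact groups. Of the 12 calls in genistein-treated males, 7 were kept (Lum, Col14a1, Fbln1, Mgp, Col4a6, Col7a1 and Col9a2). Leaving out 1 array at a time gave 6 to 10 genes higher and 4 to 7 lower in vehicle-treated males, with 6 higher without castrated vehicle array 1 and 6 without intact vehicle array 3, and 5 to 6 higher and 6 to 7 lower in genistein-treated males. With castrated genistein arrays 1 and 3 both left out, 3 genes were lower, with 1 array left in the group that is assumed to vary like the others; Col4a3, Col4a5, Col8a2, Loxl1 and Prelp lost their calls. The median change after castration in genistein-treated males ranged over -0.18 to 0.21 across settings and so has no settled sign. Estradiol's Col7a1 was at -0.0037 both within chip 3 and with chip as a fixed block; the cause was not tested. Median scaling moved the median of all genes to 0.138 after castration in vehicle-treated males, 0.113 after genistein in intact males, -0.155 in the interaction and 0.160 after estradiol, and Col8a2, Col4a5 and Ogn then lost their vehicle calls (adjusted p = 0.101, 0.145 and 0.0659). Averaging all probes of a gene lost Ogn (0.491) and Col4a5 (0.0797) and gained Col27a1 in vehicle-treated and Dcn in genistein-treated males. Calls were also gained for Dcn (trend and robust eBayes) and, in 6 settings, Col6a5 (-1.22 to -0.76) in genistein-treated males, and for Col4a4 in 3 fits without 1 array in vehicle-treated and 1 in genistein-treated males (-0.79 to -0.64). Replicate numbers did not pair the arrays (correlations of same-numbered deviations -0.277 to 0.343), and with the replicate block 8 genes were higher and 6 lower in vehicle-treated males and 6 and 6 in genistein-treated males. The strict filter gave Col4a3 no value. Genistein, estradiol and the interaction had 0 genes of the set called in every setting. The count of genes shared by both castration comparisons, whose alternatives were added after seeing the data, was 8 to 13 over the settings run in both. The fit without castrated genistein arrays 1 and 3 together is not among those settings.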
